A study of Mus musculus with 18 samples.

Results

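The 10 genes that astrocytes use in the resting brain, Slc1a2, Slc1a3, Glul, Kcnj10, Aqp4, Gja1, Gjb6, Aldh1l1, Fabp7 and S100b, were followed in total brain RNA and in ribosome-bound RNA of mice injected with lipopolysaccharide (LPS). They were chosen by gene symbol, as a list of homeostatic astrocyte genes, and make up 10 of the 36172 genes listed. LPS is a bacterial cell wall molecule that sets off inflammation when injected. All mice were Cx3cr1-cre/ERT2+; NuTRAP+ (Cx3cr1-cre/ERT2 +/wt; NuTRAP flox/wt) and had been given tamoxifen at about 3 months of age, 3 to 4 weeks before the injection. Tamoxifen turns on the EGFP tag of the ribosomes where Cx3cr1 is expressed, and in brain these cells are mainly microglia and not astrocytes. A half-brain of each mouse was homogenised, and the input fraction is a part of that lysate. The positive fraction is the RNA of the ribosomes caught from the rest by an antibody against the tag. Mice received 5 mg/kg LPS or vehicle (PBS) by intraperitoneal injection and were killed 24 h later. The 17 libraries used came from inputs of PBS animals (Input PBS, n = 4) and of LPS animals (Input LPS, n = 4) and from their positive fractions (Positive PBS, n = 4, and Positive LPS, n = 5). They stem from 4 PBS animals (2 female, 2 male) and 5 LPS animals (4 female, 1 male). A further input library, of LPS animal 271, held 1252 counts in all and was left out.

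Astrocytes take up the glutamate and potassium that active neurons release, exchange water with the blood vessels through their endfeet, and are coupled to each other by gap junctions. Slc1a2 and Slc1a3 encode the glutamate transporters GLT-1 and GLAST, and Glul encodes glutamine synthetase, which turns the glutamate taken up into glutamine. Kcnj10 encodes the inward rectifier potassium channel Kir4.1, Aqp4 the water channel aquaporin-4, and Gja1 and Gjb6 the connexins 43 and 30. Aldh1l1 encodes a folate enzyme, Fabp7 a brain fatty acid binding protein that is also high in radial glia, and S100b a calcium binding protein. The ribosome tag was driven by Cx3cr1, so the pulldown was not aimed at the cell type that these genes mark.

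In input, 4 of the 10 genes passed the test for an LPS effect (adjusted p under 0.05 and a log2 fold change past 0.322 in either direction), against 12.4% of the 14803 genes tested. Gja1 and Fabp7 were lower after LPS, where 5.26% of all genes tested were called lower, and Gjb6 and Aldh1l1 were higher, where 7.16% were called higher. In the positive fraction 4 of the 10 were again called, against 33.8% of all genes. Kcnj10, Gja1 and Fabp7 were lower (14.9% of all genes were called lower) and Gjb6 was higher (19% of all genes were called higher). All 10 passed the filter on low counts. The LPS effects on Gja1 and Fabp7 and those on Gjb6 and Aldh1l1 were opposite in sign, and each of these genes is used as a marker of astrocytes.

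The 2 connexins and the other pair called in input are shown with their promoters, 250 bases before to 50 bases after the annotated start (RefSeq, build GRCm38.p6), since they moved in opposite directions under the same injection. Capitals mark a match, on either strand, to the AP-1 motif TGANTCA. The windows were also searched for the STAT motif TTCNNNGAA and for an NF-kB motif.
Gja1 (chr10:56377050-56377349, plus strand): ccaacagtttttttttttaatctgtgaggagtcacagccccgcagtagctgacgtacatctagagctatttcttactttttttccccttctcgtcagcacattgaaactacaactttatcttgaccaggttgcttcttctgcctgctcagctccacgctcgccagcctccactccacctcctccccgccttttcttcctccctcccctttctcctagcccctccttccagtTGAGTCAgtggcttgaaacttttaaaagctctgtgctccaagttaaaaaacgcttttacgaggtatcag
Fabp7 (chr10:57784673-57784972, plus strand): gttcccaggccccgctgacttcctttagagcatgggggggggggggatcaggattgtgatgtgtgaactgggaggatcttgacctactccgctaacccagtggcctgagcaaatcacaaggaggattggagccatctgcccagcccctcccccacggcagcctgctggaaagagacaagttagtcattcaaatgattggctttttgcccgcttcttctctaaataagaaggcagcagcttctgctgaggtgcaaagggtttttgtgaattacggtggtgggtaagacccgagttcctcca
Gjb6 (chr14:57133562-57133861, minus strand): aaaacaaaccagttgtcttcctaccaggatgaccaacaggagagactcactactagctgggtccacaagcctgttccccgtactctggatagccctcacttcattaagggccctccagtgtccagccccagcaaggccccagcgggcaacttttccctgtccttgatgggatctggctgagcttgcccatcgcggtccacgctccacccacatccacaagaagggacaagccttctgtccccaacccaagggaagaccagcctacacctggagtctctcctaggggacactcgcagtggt
Aldh1l1 (chr6:90550543-90550842, plus strand): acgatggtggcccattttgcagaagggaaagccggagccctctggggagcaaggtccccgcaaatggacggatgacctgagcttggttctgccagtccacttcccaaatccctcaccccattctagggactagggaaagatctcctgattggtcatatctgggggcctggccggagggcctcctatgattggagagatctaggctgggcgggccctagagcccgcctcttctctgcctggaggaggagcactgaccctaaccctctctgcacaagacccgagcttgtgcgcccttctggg
The Gja1 window held 1 AP-1 match, which begins at position -19 from the annotated start. The Fabp7, Gjb6 and Aldh1l1 windows held no AP-1, STAT or NF-kB match. Of 32851 promoter windows of the same length, 7.81% held the AP-1 motif, 8.30% the STAT motif and 4.51% the NF-kB motif. Of the other members with a window, Slc1a3 held 1 STAT match, at position -96, and Kcnj10, Slc1a2, Glul and S100b held none of the 3 motifs. The Slc1a2 window (chr2:102706188-102706487) lies inside the gene (102658683 to 102790784), which has 3 RefSeq transcripts. The outer start of Slc1a2 was therefore not searched. A match gives the presence of the letters and says nothing of binding. The windows also differed in base composition. The Gja1 window was 47.7% G and C and the Aldh1l1 window 60.0%, with 54.0% for Fabp7, 57.3% for Gjb6 and a median of 52.7% over all windows. Gja1 and Fabp7 lie on chromosome 10, at 56377300 to 56390419 and 57784923 to 57788450. Gjb6 lies on chromosome 14 (57123301 to 57133611, minus strand) and Aldh1l1 on chromosome 6 (90550848 to 90599171), and the RefSeq start used for the Aldh1l1 window lies just upstream of that interval.

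The 17 libraries used held 22968939 to 35123345 counts, and the deposited counts were scaled by library into normalised counts. No member was thinly counted in these libraries. The lowest count of any member was 98, for Fabp7 in Positive LPS 270, and the other genes had at least 1306. The pulldown was checked with Cx3cr1, the gene that drives the tag, which was higher in the positive fraction by 4.21 ± 0.23 (log2, SE) in PBS animals and by 4.00 ± 0.22 in LPS animals. Gfap, an intermediate filament gene raised in reactive astrocytes, rose after LPS by 2.07 ± 0.15 in input and 1.95 ± 0.14 in the positive fraction (edgeR, adjusted p = 3.6e-08 and 8.36e-09). Fewer astrocytes and less RNA of a gene in each astrocyte cannot be told apart in bulk RNA. Libraries are named by group and animal number. The main fit had no term for the animal, so the 2 libraries of a mouse counted as independent. Its p-values for the LPS effect within a fraction rest on the spread between libraries of a group, pooled over both fractions. That pool counts the 17 libraries of 9 mice as independent. The p-values for positive against input and for the difference of LPS effects also leave the pairing out of account.

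**Figure D1:**
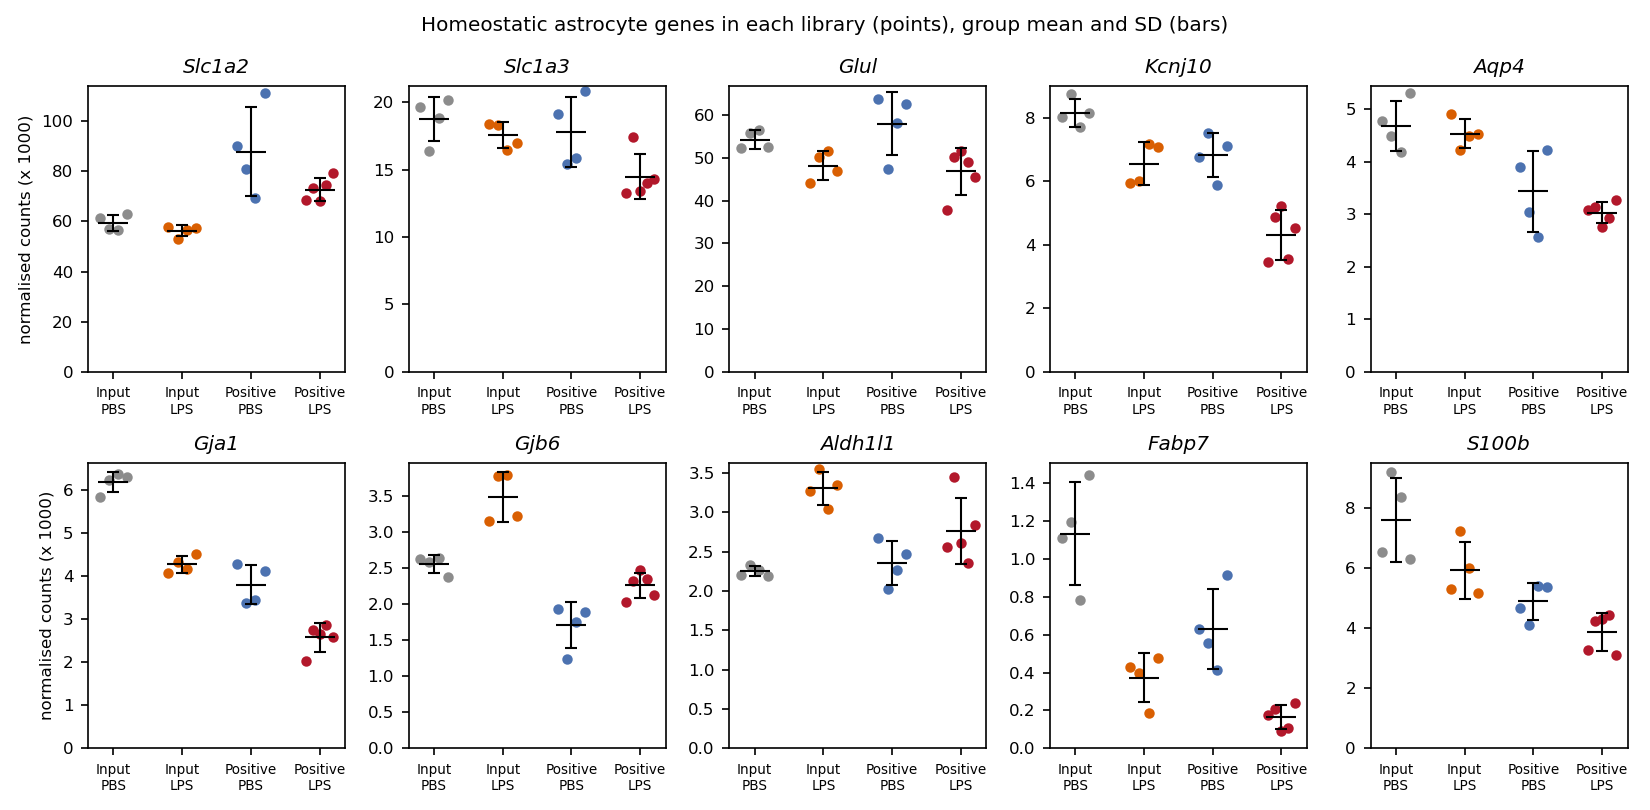
Normalised counts (y axis from 0) of the 10 genes in each library, by group, with the group mean and SD (n = 4, 4, 4 and 5). The Input LPS points of Gja1 and Fabp7 lie below all Input PBS points, and those of Gjb6 and Aldh1l1 lie above them.

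The glutamate transporters and glutamine synthetase showed small differences. Slc1a2 stood at 59366 ± 3280 normalised counts in Input PBS and 56235 ± 2253 in Input LPS (SD). The ranges overlapped, and the log2 difference was -0.08 with a 95% interval of -0.30 to 0.14. Slc1a3 went from 18753 ± 1660 to 17537 ± 965 and Glul from 54256 ± 2197 to 48145 ± 3368. Neither passed the test in input (log2 -0.10 and -0.17, edgeR adjusted p = 0.591 and 0.272), although the 4 Input LPS values of Glul, from 44078 to 51576, lay below the 4 Input PBS values, from 52179 to 56568. In the positive fraction the 3 genes had log2 differences of -0.27 ± 0.10 (Slc1a2), -0.30 ± 0.10 (Slc1a3) and -0.31 ± 0.09 (Glul). Their adjusted p-values were 0.0338, 0.0217 and 0.0139, but each difference was short of the 0.322 needed on the log2 scale, so none was called. Their groups overlapped in the positive fraction. Slc1a2 lay between 69186 and 111080 in Positive PBS and between 67994 and 79187 in Positive LPS. With libraries scaled on 99 neuronal genes, the median of all genes moved to 0.31 in the positive fraction and 0.11 in input, their calls moved from 2809 higher and 2199 lower to 6137 and 624 in the positive fraction and from 1060 and 779 to 1671 and 397 in input, and the LPS effects in the positive fraction were 0.025 for Slc1a2, -0.00062 for Slc1a3 and -0.021 for Glul.

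The ratio of the 2 transporters within a library does not depend on the scaling. Slc1a2 counts were 3.18 ± 0.20 times those of Slc1a3 in Input PBS and 3.22 ± 0.25 times in Input LPS, a log2 difference of 0.02 (exact permutation test, two-sided, p = 0.857, unadjusted). The ratio in the positive fraction was 4.91 ± 0.46 in PBS animals and 5.06 ± 0.51 in LPS animals, a log2 difference of 0.04 (exact permutation p = 0.667, unadjusted). Between positive fraction and input of the same animal the log2 ratio differed by 0.63 ± 0.09 (SD, 8 animals, exact permutation p = 0.00781, unadjusted, the smallest that 8 pairs allow). The 10 genes give 45 such ratios, all of which were computed for these comparisons. Between positive fraction and input, 31 of the 45 reached this same smallest p. Slc1a2 was above input in all 8 animals and Slc1a3 below it in 7, so the paired test largely repeats those values.

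Kcnj10, the potassium channel gene, fell after LPS in the positive fraction. It was at 6768, 7502, 5893 and 7115 normalised counts in the 4 Positive PBS libraries. In the 5 Positive LPS libraries it was at 3455, 4861, 5212, 3549 and 4515. The groups did not overlap, and the log2 fold change was -0.66 ± 0.11 (SE, edgeR adjusted p = 0.000171). In input, Kcnj10 lay between 7688 and 8729 in PBS animals and between 5945 and 7171 in LPS animals. These groups did not overlap either, but the log2 difference of -0.31 ± 0.12 did not pass the test (adjusted p = 0.0931). With the animal as a block for the 2 fractions of each mouse it was -0.35 and passed (limma, adjusted p = 0.0465).

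Aqp4, the water channel gene of the same endfeet, was not called after LPS in either fraction. Its mean was 4688 ± 476 in Input PBS and 4537 ± 280 in Input LPS (log2 -0.05, 95% interval -0.30 to 0.21). Its positive fraction levels were 3435 ± 768 in PBS animals and 3033 ± 200 in LPS animals (log2 -0.18, 95% interval -0.42 to 0.06). Both sets of groups overlapped, and the intervals leave room for a fall past 0.322 in the positive fraction and for none past it in input.

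The connexin genes moved in opposite directions. Gja1 was at 5837, 6216, 6362 and 6291 normalised counts in Input PBS and at 4063, 4319, 4171 and 4517 in Input LPS. All LPS values were lower, and the log2 fold change was -0.53 ± 0.10 (SE, edgeR adjusted p = 0.00108). In the positive fraction Gja1 was at 4270, 3380, 3435 and 4113 after PBS and at 2016, 2740, 2653, 2867 and 2591 after LPS. Again no LPS value reached a PBS value (log2 -0.56 ± 0.09, adjusted p = 0.000117). With scaling on the neuronal genes it was at -0.28 in the positive fraction, beneath the fold needed for a call.

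Gjb6 was at 2618, 2577, 2642 and 2379 in Input PBS and at 3153, 3777, 3795 and 3222 in Input LPS. Each Input LPS library was above each Input PBS library, with a log2 fold change of 0.45 ± 0.11 (adjusted p = 0.0117). In the positive fraction it was at 1938, 1243, 1756 and 1890 after PBS and at 2029, 2314, 2473, 2348 and 2125 after LPS (log2 0.40 ± 0.11, adjusted p = 0.00637). The groups did not overlap, but the low Positive PBS library of animal 272 carried part of the difference, which was 0.28 without it and under the fold needed. Without animals 506 and 507 the difference in input was 0.45 with an adjusted p of 0.0663.

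Within each library, Gja1 counts were 2.23, 2.41, 2.41 and 2.64 times the Gjb6 counts in Input PBS. In Input LPS the ratio was 1.29, 1.14, 1.10 and 1.40. It was 2.26 ± 0.32 in Positive PBS and 1.14 ± 0.10 in Positive LPS. The difference in the log2 ratio was -0.98 in input and -0.99 in the positive fraction. Exact permutation tests, two-sided, gave unadjusted p = 0.0286 and 0.0159, the smallest values that 4 against 4 and 5 against 4 libraries allow. Adjusted over the 45 ratios, they were 0.046 and 0.0358. Each connexin gene alone had separated the groups, in opposite directions, so the ratio had to reach the smallest p. The test therefore repeats those results and is not further evidence. Of the 45 ratios, 28 in input and 20 in the positive fraction reached these same values. This change in the balance of the connexin RNAs does not depend on how the libraries were scaled.

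**Figure D2:**
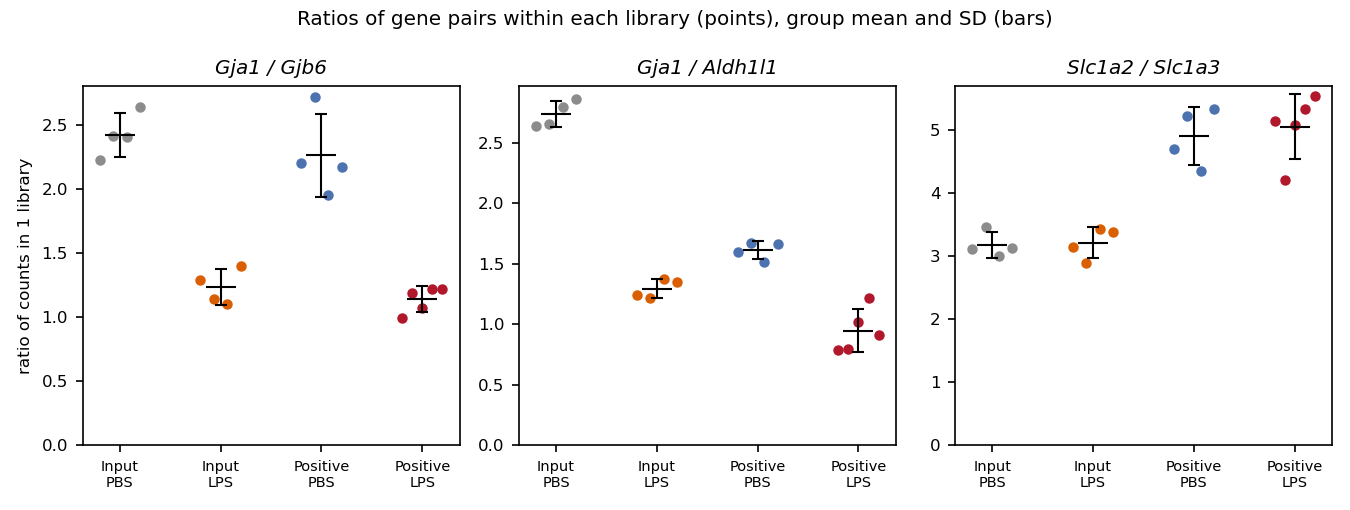
Ratio of the counts of 2 genes in the same library (y axis from 0), by group, with the group mean and SD (n = 4, 4, 4 and 5). The ratio of Gja1 to Gjb6 falls from 2.42 to 1.23 in input and from 2.26 to 1.14 in the positive fraction, while that of Slc1a2 to Slc1a3 differs between fractions.

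Aldh1l1, the folate enzyme gene, rose after LPS in input. It was at 2210, 2338, 2273 and 2196 normalised counts in Input PBS and at 3271, 3559, 3039 and 3354 in Input LPS. The groups lay well apart, with a log2 fold change of 0.55 ± 0.10 (adjusted p = 0.0013). In the positive fraction it lay between 2022 and 2672 after PBS and between 2351 and 3457 after LPS, so that the groups overlapped, and the log2 difference of 0.23 ± 0.10 was not called (adjusted p = 0.0728). With scaling on the neuronal genes, which put the median of all genes at 0.31, it was 0.53 and called. The ratio of Gja1 to Aldh1l1 in a library was 2.74 ± 0.11 in Input PBS and 1.29 ± 0.08 in Input LPS.

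Fabp7 had the largest LPS effect of the 10 genes in both fractions. It was at 1112, 1194, 784 and 1443 normalised counts in Input PBS and at 427, 398, 186 and 480 in Input LPS. The groups did not overlap, and LPS libraries held 32.9% of the fitted PBS level (log2 -1.60 ± 0.31, edgeR adjusted p = 0.00173). In Positive PBS it was at 632, 555, 414 and 918, and in Positive LPS at 174, 210, 90.9, 109 and 238. Here LPS libraries held 26.1% of the PBS level (log2 -1.94 ± 0.30, adjusted p = 6.45e-05). Fabp7 was also the most variable of the 10 within groups, with coefficients of variation between 24.0% and 38.6%.

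S100b was not called. It averaged 7609 ± 1405 in Input PBS and 5925 ± 949 in Input LPS, and 4893 ± 626 in Positive PBS and 3877 ± 632 in Positive LPS. The log2 differences were -0.36 ± 0.15 and -0.34 ± 0.14 (adjusted p = 0.117 and 0.0648), with overlap between groups in both fractions.

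**Figure D3:**
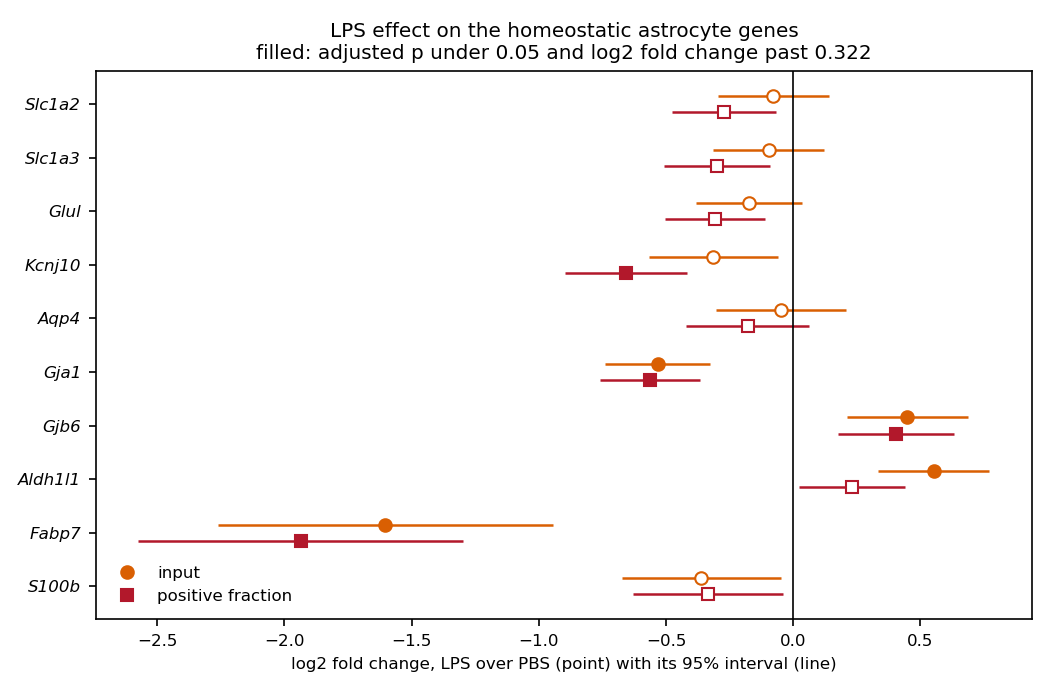
Fitted log2 fold change, LPS over PBS (x axis), of each gene in input (circles) and in the positive fraction (squares), with 95% intervals as lines and filled symbols for genes called. Fabp7 lies farthest to the left at -1.60 and -1.94, and Gjb6 and Aldh1l1 are the 2 genes to the right of 0 in both fractions.

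Whether LPS acted on these genes to a different extent in the 2 fractions was tested as the difference of the LPS effects. None of the 10 genes passed (edgeR), against 6.88% of all genes tested (808 higher and 210 lower, 1857 and 104 with scaling on the neuronal genes, and 654 and 312 on total counts), and 1 had an unadjusted p under 0.05. DESeq2 and limma with a mean-variance trend also called 0 of the 10. So did edgeR with a term for each animal, on the animals with both libraries, against 1309 of all genes higher and 599 lower. The gene with the low unadjusted p was Aldh1l1, which was called in input alone. Its difference was -0.32 ± 0.14 (edgeR, adjusted p = 0.218, unadjusted 0.0373). For Kcnj10, called in the positive fraction alone, the difference was -0.35 ± 0.17 with a 95% interval of -0.69 to 0.004 (adjusted p = 0.262). For Gja1 and Gjb6 the differences were -0.03 and -0.04, with intervals of -0.31 to 0.26 and -0.37 to 0.28. Sexes were unevenly spread over the treatments, but with sex as a term no call of a member changed in any comparison. Scaling on total counts raised the members called in the positive fraction from 4 to 7, as Slc1a3 (-0.33), Glul (-0.34) and S100b (-0.37) then passed. Over all genes that scaling gave 2565 called higher and 2419 lower, against 2809 and 2199, with a median of -0.019.

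The positive fraction was then set against input in animals given PBS. Here 6 of the 10 genes were called, against 39.8% of all genes. Of these, 5 were lower in the positive fraction (18.8% of all genes were called lower), namely Fabp7 (-0.85 ± 0.31 on the log2 scale), Gja1 (-0.70 ± 0.10), S100b (-0.64 ± 0.15), Gjb6 (-0.58 ± 0.11) and Aqp4 (-0.45 ± 0.12). Slc1a2 was higher (21% of all genes were called higher), by 0.56 ± 0.10 (edgeR adjusted p = 0.000241). Kcnj10 (-0.26), Slc1a3 (-0.07), Glul (0.10) and Aldh1l1 (0.06) were not called, although Kcnj10 was at -0.37 and called when libraries were scaled on total counts. That scaling moved the median of all genes from -0.00088 to -0.12 and their calls from 3113 higher and 2785 lower to 2350 and 3821. The call of Fabp7 (adjusted p = 0.0311) was lost when any of 6 of the 8 libraries was left out, with log2 values between -0.86 and -0.69.

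In LPS animals 7 of the 10 were called, against 53.4% of all genes. Aqp4, Kcnj10, Gja1, Gjb6, Fabp7 and S100b were lower in the positive fraction, by -0.58, -0.60, -0.73, -0.63, -1.18 and -0.61 on the log2 scale (25.8% of all genes were called lower). Slc1a2 was higher by 0.37 ± 0.10 (27.6% of all genes were called higher, adjusted p = 0.00359). Slc1a3 (-0.28 ± 0.10) and Aldh1l1 (-0.26 ± 0.10) were under the fold needed and Glul was at -0.04 ± 0.09. The Slc1a2 call depended on the scaling. Scaling on total counts moved the median of all genes to -0.20 and their calls from 4091 higher and 3817 lower to 3023 and 5539. Slc1a2 was then at 0.19 and no longer called, while Slc1a3 (-0.45) and Aldh1l1 (-0.43) were called lower. With the deposited log2 values Slc1a3 (-0.39) and Aldh1l1 (-0.37) were also called lower.

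Within single animals, both libraries come from the same lysate. Gja1 in the positive fraction was between 0.496 and 0.731 times its input level in the 8 animals with both libraries, Aqp4 between 0.612 and 0.819 times, and Fabp7 between 0.407 and 0.636 times. Slc1a2 was between 1.18 and 1.76 times its input level, above input in all 8. Glul was below input in 3 of 8 animals and Aldh1l1 in 6 of 8. For comparison, the study's list of 238 tested microglia genes had a median log2 difference of 3.34 between positive fraction and input in PBS animals.

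**Figure D4:**
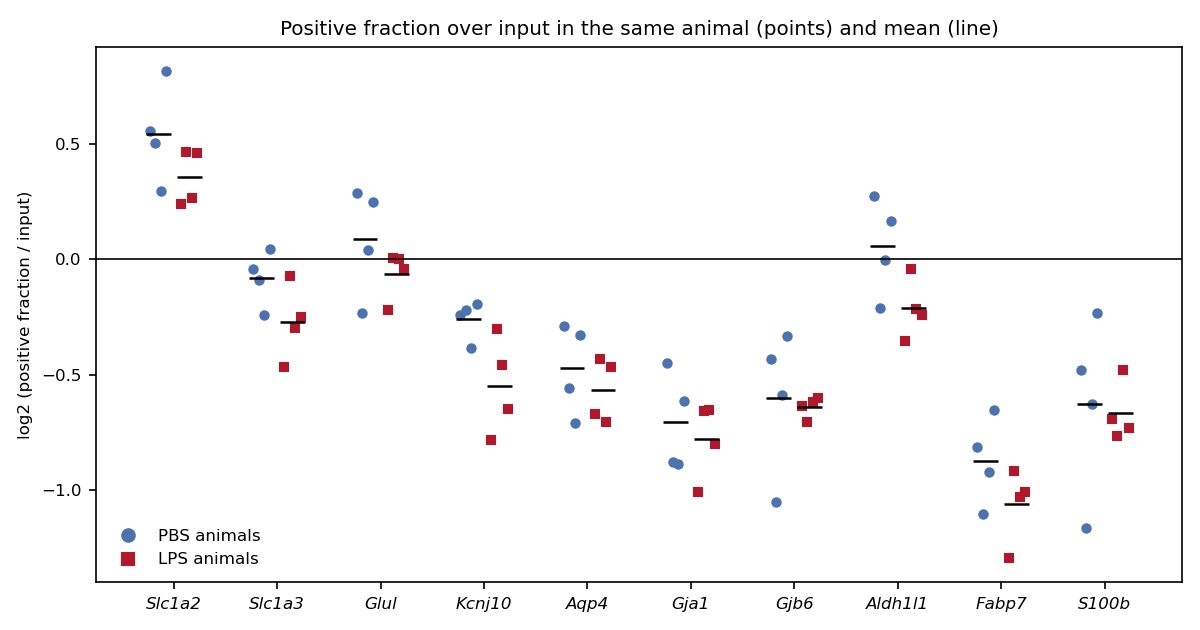
Log2 ratio of normalised counts, positive fraction over input of the same animal (points, 4 PBS and 4 LPS animals), with the mean of each treatment as a line. Slc1a2 lies above 0 in all 8 animals, and Aqp4, Kcnj10, Gja1, Gjb6, Fabp7 and S100b lie below 0 in all 8.

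Levels of different genes were compared as normalised counts per kilobase of the union of RefSeq-matched exons. In Input PBS, Glul was highest at 19433 ± 787 per kb. S100b (5127 ± 947), Slc1a2 (4909 ± 271) and Slc1a3 (4505 ± 399) came next, and neighbours among these overlapped. Gja1 followed at 2011 ± 76.1, apart from both neighbours. Kcnj10 (1506 ± 80.5), Fabp7 (1410 ± 338) and Gjb6 (1213 ± 57.0) overlapped in turn, and Aqp4 (794 ± 80.7) and Aldh1l1 (739 ± 21.4) were lowest and overlapped. In Input LPS, Gjb6 (1656 ± 165) stood above Gja1 (1390 ± 64.1) without overlap, and Fabp7 was last at 464 ± 161. In Positive PBS the order began with Glul (20762 ± 2657) and Slc1a2 (7255 ± 1467), with Slc1a3 (4278 ± 620) and S100b (3297 ± 422) next, each apart from the next. In Positive LPS, Glul and Slc1a2 still led at 16776 ± 1982 and 6009 ± 384, and Fabp7 was again last at 205 ± 78.9. Summed, the 10 genes took 0.601% ± 0.010 of the counts in Input PBS, 0.559% ± 0.007 in Input LPS, 0.628% ± 0.089 in Positive PBS and 0.503% ± 0.026 in Positive LPS.

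Genes of the same pathways, without the members, were counted in the same test. Over all genes tested, 7.16% were called higher and 5.26% lower after LPS in input, and 19% and 14.9% in the positive fraction. The counts of each list below are to be read beside these shares. Beside the transporters, 20 genes of glutamate and GABA uptake and the glutamine cycle were tested. After LPS 1 was higher and 3 were lower in input, and 2 were higher and 5 lower in the positive fraction, with medians of -0.05 and -0.19 (0.004 and 0.01 over all genes). Slc38a3, a glutamine transporter that astrocytes use for release, fell by 0.98 in input and by 1.32 in the positive fraction on the log2 scale. Slc25a18, a mitochondrial glutamate carrier, fell by 0.56 and 0.54. Slc38a2, another amino acid transporter that carries glutamine, rose by 0.33 and 0.50, and Slc7a11, the cystine and glutamate exchanger, rose by 1.26 in the positive fraction.

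Of 24 further genes of water and potassium handling and endfoot anchoring, 1 was higher and 2 were lower in input, and 1 was higher and 9 were lower in the positive fraction (medians -0.11 and -0.18). Kcnj16, whose channel subunit joins Kir4.1, fell by 0.76 in input and by 1.13 in the positive fraction. Dtna, which encodes alpha-dystrobrevin of the anchoring complex, fell by 0.37 and 0.75. Aqp1, the water channel of choroid plexus, rose by 0.73 in input, and Sntb2, a syntrophin gene, rose by 0.81 in the positive fraction.

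Of 12 further connexins and junction partners, 1 was higher and 3 lower in input and 0 were higher and 3 lower in the positive fraction (medians -0.15 and -0.36). Gjb2, for connexin 26, the other connexin found in astrocytes, rose by 0.40 in input (adjusted p = 0.0485). Among connexin genes of oligodendrocytes, Gjb1 had a log2 fold change of -1.44 in input, and Gjc3 had one of -0.89 in the positive fraction.

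Of 14 further folate and one-carbon genes tested, 2 were higher and 2 lower in input and 6 higher and 2 lower in the positive fraction (medians 0.06 and 0.31). Shmt1, a serine hydroxymethyltransferase gene, rose by 0.96 and 1.26, Mthfd1l by 0.68 in input and Mthfd2, a mitochondrial folate enzyme gene, by 1.07 in the positive fraction. Gldc and Amt, subunits of the glycine cleavage system, fell by 0.93 and 0.47 in input and by 1.17 and 0.46 in the positive fraction.

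Of the other fatty acid binding proteins 3 were tested. Fabp3, the heart form, fell by 0.55 in the positive fraction, and Fabp4, the adipocyte and macrophage form, rose by 2.48 in input and 3.29 in the positive fraction (named after its values were seen, as it was under the mean count set for named genes). Of 11 further genes tested, 10 for S100 proteins and S100pbp for an S100-binding protein, 5 were higher in input and 7 in the positive fraction and none was lower. S100a8 and S100a9, which neutrophils and other myeloid cells carry, rose by 2.00 and 1.88 in input and by 4.73 and 1.90 in the positive fraction. Of 22 astrocyte transcription factors, 3 were higher and 4 lower in input, and in the positive fraction 3 higher and 9 lower. Sox9 rose by 0.56 and Id2 by 0.59 in the positive fraction, Id1 and Id3 rose by 0.73 and 0.57 in input, and Hes5 and Emx2 fell by 0.86 and 0.59 in input and by 1.05 and 0.85 in the positive fraction.

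Against these, 25 of 29 reactive astrocyte genes were higher in input, and 24 were higher and 1 lower in the positive fraction, with medians of 2.14 and 1.95. Lcn2, the secreted lipocalin-2, rose most, by 5.48 and 6.30. The study's own astrocyte list, without the members, had 131 genes tested, of which 10 were higher and 38 lower in input and 12 higher and 59 lower in the positive fraction (medians -0.19 and -0.32). In that list Btbd17 had log2 fold changes of -1.48 and -1.54, while Gfap rose, as given above.

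Genes of other cells also moved after LPS in these libraries, and their part in the members' differences was not tested. Of the study's 99 neuron genes, 0 were called higher and 6 lower in input, and 0 higher and 43 lower in the positive fraction (medians -0.09 and -0.32). Their summed share of counts was 2.76% ± 0.04 in Input PBS, 2.65% ± 0.05 in Input LPS, 2.51% ± 0.11 in Positive PBS and 2.04% ± 0.15 in Positive LPS. Of 192 oligodendrocyte genes, 3 were higher and 79 lower in input and 16 higher and 60 lower in the positive fraction (medians -0.36 and -0.29). In the microglia list 79 of 238 genes were higher and 20 lower in input, with 99 higher and 66 lower in the positive fraction. Among 10 oligodendrocyte precursor markers, 6 were lower in input, and 5 lower and 1 higher in the positive fraction, with Gpr17 at -2.21 and -2.39. Among 15 endothelial markers, 3 were higher and 3 lower in input and 2 higher and 8 lower in the positive fraction. Among 9 pericyte and smooth muscle markers 3 were lower in input, and 1 higher and 4 lower in the positive fraction, and of 9 ependymal and choroid plexus markers 1 and 2 were lower.

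Genes whose pattern over the 17 libraries was nearest to that of each member were found by the root mean square difference of centred log2 normalised counts, among 12598 genes with a mean of at least 100. For Glul it was Aldoc, an aldolase gene of astrocytes (0.06). For Slc1a2 it was Stxbp6 (0.08) and for Slc1a3 it was Anks1b (0.09). For Gja1 it was Mmd2 (0.11) and for Gjb6 it was Klf15 (0.16). For Kcnj10 it was Slc6a11, a GABA transporter gene of astrocytes (0.12), for Aqp4 Rin1 (0.12), for Aldh1l1 Cab39l (0.13), for S100b Kcnmb4 (0.15) and for Fabp7 Ogn (0.31). The members' own spread on this scale ran from 0.18 for Glul to 1.17 for Fabp7. Fabp7 had the largest distance to its nearest gene.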

How the data were processed

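TRAP-RNAseq was done on input and positive fractions of brain from Cx3cr1-cre/ERT2+; NuTRAP+ mice. Per the study's methods, reads were trimmed by the authors and mapped by direction to Mm10 in Strand NGS, and normally aligned reads were kept. The authors deposited estimated counts per gene, of which 81.6% of those above 0 were not whole numbers (tolerance 1e-06). They also deposited log2 values normalised with DESeq over all 18 libraries, which were used only as an alternative. Depth and its limits follow from total counts of 22968939 to 35123345 in the 17 libraries used.

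Here the estimated counts were rounded and divided by size factors (medians of ratios over 15766 genes, 0.766 to 1.32). The filter asked for more than 20 normalised counts in all libraries of some group, which 14803 genes met. Counts were fitted with edgeR 4.0.16 (quasi-likelihood, 1 mean per group, 13 residual degrees of freedom) in R 4.3.3. A call needed an adjusted p (Benjamini-Hochberg over all genes tested) under 0.05 and a log2 fold change past 0.322. This takes the place of the study's analysis of variance, with the same thresholds. The fit was tested on simulated data. Values ± are SD for levels and SE for log2 fold changes. Exact permutation tests used scipy 1.17.1, and figures matplotlib 3.10.9. Alternatives were DESeq2 1.42.0, limma 3.58.1, other scalings, no filter, other sets of libraries, sex as a term, the animal as a block and leaving out each library.

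The labels give each animal 1 input and 1 positive library, which are thus paired. In the 8 animals with both, deviations from the group means correlated at 0.16 to 0.519 over genes.

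The members, gene lists and tests were chosen with earlier results of these data known. Beside the members, genes named are Gfap and Cx3cr1, from each list up to 2 of the highest and 2 of the lowest genes called for LPS (mean normalised count of 100 or more), and the gene nearest to each member. A gene that met this rule is left out of the text. Promoter sequences are RefSeq's (GRCm38.p6) and were used for 9 of the 10 genes, with none for Aqp4. Lists of microglia, astrocyte, oligodendrocyte and neuron genes are the study's, and the other lists were written from general knowledge.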

Additional observations from a re-analysis of the deposited data

Results flagged for a closer look

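Slc1a3 in the library Positive LPS 267 stood at 17389 normalised counts, the highest of the 5 Positive LPS libraries, and its gap to the next was 0.755 of the group's range, past the 95% limit for a single outlying value. It was the 1 group of 40 (10 genes in 4 groups) in which a library stood apart in this way, and chance flags about 1 in 20. Without this library the Slc1a3 difference after LPS in the positive fraction was -0.37 (log2) and passed the test, where it was -0.30 and under the fold needed with it. It also passed without Positive PBS 272 (-0.36) and without Positive PBS 273 (-0.35). Animal 267 was the only male given LPS.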

How the results depend on the processing

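Of 1440 member values under the alternatives, 1363 kept their direction and their side of the threshold, 13 lost a call, 25 gained one and 39 changed sign, all of them without a call on either side. Members called for the LPS effect numbered 4 in input in each leave-one-out fit and 4 to 6 in the positive fraction, 5 to 6 for positive against input in PBS animals and 7 to 9 in LPS animals, and the difference of LPS effects gave 0 throughout. With total count scaling, 7 members were called in the positive fraction. The animal as a replicate block turned the S100b difference to -0.041 and brought Kcnj10 in input to a call (-0.35); it changed no other call.

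Values that changed sign were small. With size factors from the neuron list, the LPS effect in input was 0.056 for Aqp4, 0.025 for Slc1a2 and 0.0069 for Slc1a3, that in the positive fraction 0.12 for Aqp4 and 0.025 for Slc1a2, and positive against input in LPS animals 0.083 for Glul. The differences of LPS effects were then 0.063 for Aqp4, 0.00073 for Slc1a2, 0.047 for Glul, 0.15 for Gja1 and 0.14 for Gjb6. Positive against input in PBS animals was -0.021 for Glul and -0.051 for Aldh1l1 with total count scaling, -0.030 and -0.060 with all 18 libraries, and -0.041 and -0.070 with the deposited log2 values. The difference was -0.037 for S100b with total count scaling, 0.00025 for Gja1 with all 18 libraries, and 0.00013 for Gjb6 with the deposited log2 values. Without animals 506 and 507, Aqp4 in input was at 0.019 and the differences of Gja1 and Gjb6 at 0.027 and 0.024. Leaving out 1 library at a time gave ranges of -0.10 to 0.017 for Aqp4 in input, -0.081 to 0.030 for Glul in LPS animals, and for the difference -0.082 to 0.052 (Gja1), -0.17 to 0.021 (Gjb6) and -0.079 to 0.13 (S100b).

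The Slc1a2 call for positive against input was lost with all 18 libraries in PBS animals (0.44) and in LPS animals (0.39), where the nearly empty library enters the fit, and in LPS animals also with the deposited log2 values (0.26). The causes were not tested. The 4 or 5 libraries a group limit what could be detected.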
